A study of Mus musculus with 14 samples.

Results

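The cell cycle exit genes considered here were 10 mouse genes that decide whether a myoblast goes on dividing or withdraws from the cell cycle: the inhibitors Cdkn1a, Cdkn1b and Cdkn1c, the D-type cyclins Ccnd1, Ccnd2 and Ccnd3, the kinases Cdk4 and Cdk6, the pocket protein gene Rb1 and the transcription factor gene E2f1. Every ChIP-seq peak that the authors' annotation assigned to one of these genes as the nearest gene was taken, which gave 215 of the 517058 peaks in 10 lists. The lists came from C2C12 cells, a mouse myoblast line that fuses into myotubes in low serum, all collected on day 2 of differentiation. The control cells carried no label of a transfection, and the knockdown cells (siMyolinc) had received 10 nM siRNA against Myolinc, a long noncoding RNA. Whether a control siRNA was used is not in the labels. The 4 antibodies recognised TDP-43 (an RNA- and DNA-binding protein), MyoD, Myogenin and the serine 2-phosphorylated form of RNA polymerase II (Pol II S2P). MyoD and Myogenin are transcription factors of the muscle lineage, and the serine 2 form of the polymerase marks elongation. TDP-43 had 3 control lists and 1 siMyolinc list, and each other antibody had 1 list per condition. The remaining 4 of the 14 samples were input or IgG and came without a peak list. The study asked what loss of Myolinc does to the binding of TDP-43, and the cell cycle exit genes lie outside the muscle-specific genes that it set out to examine.

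D-type cyclins bind Cdk4 and Cdk6, and the complexes phosphorylate the retinoblastoma protein encoded by Rb1. Hypophosphorylated retinoblastoma protein holds E2f1 and its relatives in check, which keeps genes of DNA replication silent. The products of Cdkn1a (p21), Cdkn1b (p27) and Cdkn1c (p57) block cyclin-dependent kinases. In differentiating myoblasts p21 and the retinoblastoma protein are known for permanent withdrawal from the cycle, and cyclin D3 is the D-type cyclin known to stay abundant in muscle cells. These are statements about the proteins, and ChIP-seq peaks measure occupancy near the genes, not their RNA.

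The lists held between 8162 and 116064 peaks. Within a list the authors' peak scores were whole multiples of 1 step, so that a score can be read as a number of sequence tags. The number of tags in a library came to between 962387 and 3774952, if the scores are scaled to 10000000 tags. The siMyolinc lists of MyoD and Myogenin stood apart from the other 8, with a median peak width of 75 bp against 217 to 249 bp and a median of 24 and 137 tags per peak against 6 to 15. Lists therefore differed in length, depth and peak shape together with the condition. For MyoD, Myogenin and Pol II S2P the condition and these properties cannot be told apart. If scaled in the same way, TDP-43 siMyolinc came to 3253048 tags, against 1394415, 1086775 and 962387 in the TDP-43 controls. For TDP-43 the condition and depth therefore cannot be told apart either. The labels name 1 IgG sample for each condition, and nothing in them says whether the 3 TDP-43 control libraries came from separate cultures. The spread between these controls may therefore be technical. The p-values only place the single TDP-43 siMyolinc library relative to these 3 controls and say nothing of the spread between knockdown libraries. Of 10 muscle marker genes, Pol II S2P had promoter peaks at Ckm and Myod1 in control and at Acta1 and Ckm in siMyolinc. It had none at the promoters of 5 fibroblast or 5 hepatocyte markers in either condition. Over all protein-coding genes 1.55% had one in control and 8.9% in siMyolinc, so none among 5 genes does not set those markers apart. Other lists had them at the fibroblast markers Col1a1 (TDP-43 control replicate 3), Pdgfra (MyoD siMyolinc) and Dcn (Myogenin control). MyoD control had one at the hepatocyte marker Serpina1a. At muscle markers, TDP-43 controls had them at 2, 1 and 1 of 10, Myogenin control at 3, MyoD siMyolinc at 2 and MyoD control at none. TDP-43 siMyolinc and Myogenin siMyolinc had no promoter peak at any marker. In the Pol II S2P siMyolinc list, peaks anywhere near a marker did not separate the cell types. There 9 of 10 muscle, 5 of 5 fibroblast and 5 of 5 hepatocyte markers were the nearest gene of a Pol II S2P peak.

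Most peaks assigned to the cell cycle exit genes lay away from promoters. Of the 215 peaks, 5 were of the authors' promoter class, 90 were intronic, 11 lay in exons, untranslated regions or transcript ends and 109 were distal. The median distance to the named transcription start was 26557 bp, with 11 peaks within 1 kb of a start, 58 within 10 kb and 33 beyond 100 kb. In all, 73 peaks lay inside the body of the named gene, and 29 (13.5%) were annotated to the transcript of another gene. The nearest start decides the gene that a peak is named for, so in crowded loci a peak beside a member can carry a neighbour's name. Counted by position, 181 peaks were centred within 10 kb of a member's body, of which 105 were named for that member and 76 for another gene. Counts by position are given for a gene where they turn a direction or fill a count of 0. Repeats held 79 peaks (36.7%), of which 30 were SINE, 22 LTR and 20 LINE elements. The 6 control lists held 92 of the peaks and the 4 siMyolinc lists 123.

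**Figure D1:**
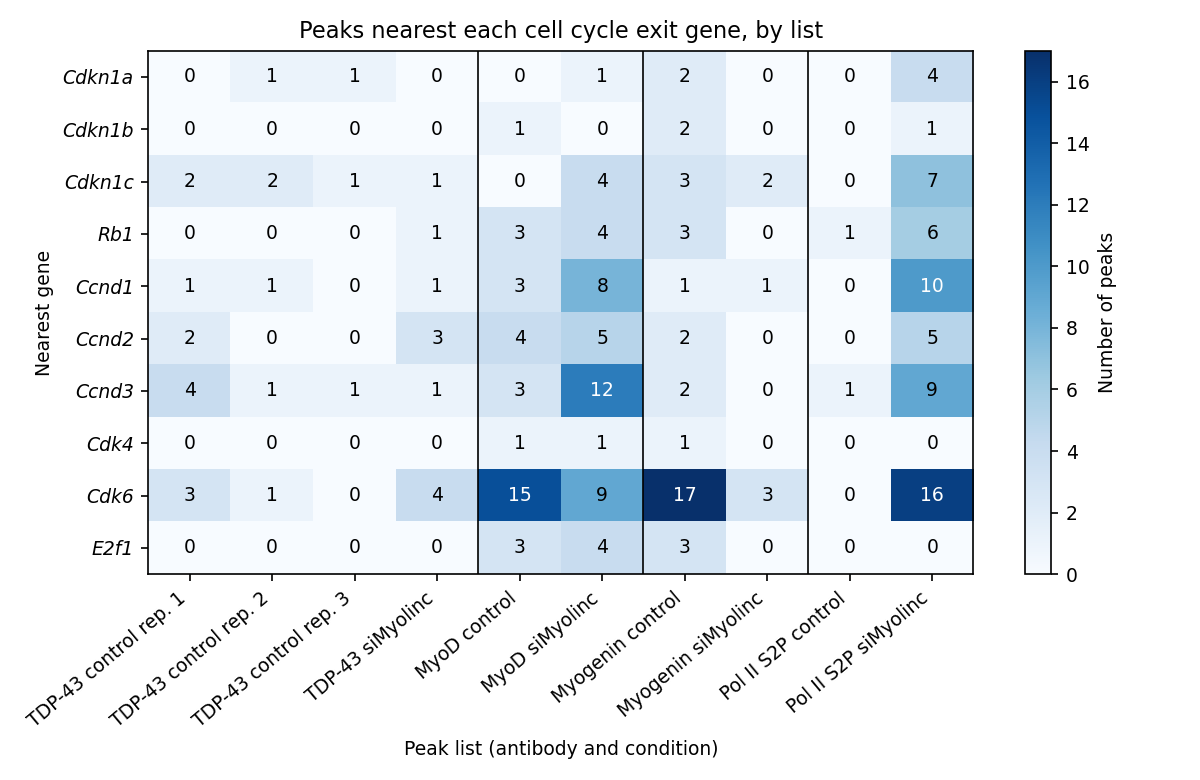
Number of peaks whose nearest gene is each of the 10 cell cycle exit genes (rows), in each of the 10 peak lists (columns, grouped by antibody), with the number printed in each cell. Cdk6 and Ccnd3 hold the most peaks, the Pol II S2P control list holds 2 peaks and the Pol II S2P siMyolinc list 58.

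The 3 TDP-43 control lists held 12, 6 and 3 of the peaks and the TDP-43 siMyolinc list 11. MyoD had 33 in control and 48 after knockdown, Myogenin had 36 and 6, and Pol II S2P had 2 and 58. Within each antibody a longer list held more of the peaks. Across antibodies the order of the counts was not that of list length, since Myogenin control held 36 in 115000 peaks and MyoD siMyolinc 48 in 109541. Per 10000 listed peaks, TDP-43 had 4.04, 5.68 and 3.68 in control, a mean of 4.47 ± 1.07 (SD, n = 3), and 4.41 in siMyolinc, which lies inside the control range (exact two-sided permutation test, p = 1, where 0.25 is the smallest p the design allows). MyoD had 4.59 per 10000 (95% Wilson interval 3.27 to 6.45) in control and 4.38 (3.31 to 5.81) in siMyolinc. Myogenin had 3.13 (2.26 to 4.33) and 2.94 (1.35 to 6.4). Pol II S2P had 1.87 (0.512 to 6.8) and 5.0 (3.87 to 6.46). Within each antibody the intervals of the control and knockdown lists overlapped, and the differences for MyoD, Myogenin and Pol II S2P have no replicate check. Counted by position instead of by name, the MyoD difference per 10000 (siMyolinc minus control) was 1.55 in place of -0.208, that of Myogenin was 1.48 in place of -0.195 and that of Pol II S2P was -0.961 in place of 3.13. None of the 3 kept its direction. Wilson and Poisson intervals in this text cover counting error only, not variation between libraries. PCR copies are not independent molecules, so the intervals on tags may be too narrow even for counting error.

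In the TDP-43 controls 5, 5 and 3 of the 10 genes were the nearest gene of at least 1 peak, against 49.3%, 26.8% and 22.3% of 21887 protein-coding genes. In the TDP-43 siMyolinc list 6 of 10 were, against 45.2% (control mean 4.33 ± 1.15 genes, SD, n = 3, exact permutation p = 0.5). For MyoD, 8 of 10 genes had a peak in control, where 64.9% of all genes did, and 9 of 10 in siMyolinc, where 75.7% did. For Myogenin, 10 of 10 genes had a peak in control against 73.2%, and 3 of 10 in siMyolinc against 39.7%. For Pol II S2P, 2 of 10 had one in control against 26.8%, and 8 of 10 in siMyolinc against 77%. Between the control and siMyolinc lists of each antibody the number of cell cycle exit genes with a peak thus moved in the same direction as the share over all genes, apart from TDP-43 control replicate 1, whose share over all genes was above that of siMyolinc.

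Promoter peaks were rare. TDP-43 had none at any of the 10 genes in its 3 control lists, where 5.09%, 2.12% and 1.65% of protein-coding genes had one, and none in siMyolinc, where 2.49% did. Myogenin in control had promoter peaks at Cdk4, E2f1 and Rb1, 3 of 10 genes against 6.47% of protein-coding genes, and none in siMyolinc against 2.46%. MyoD had none in control against 4.02% and 1 in siMyolinc, at Ccnd3, against 11.2%. Pol II S2P had none in control against 1.55% and 1 in siMyolinc, at Cdkn1a, against 8.9%. With every list reduced to the 8162 highest peaks, the length of the shortest list, none of these 5 promoter peaks was left.

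**Figure D2:**
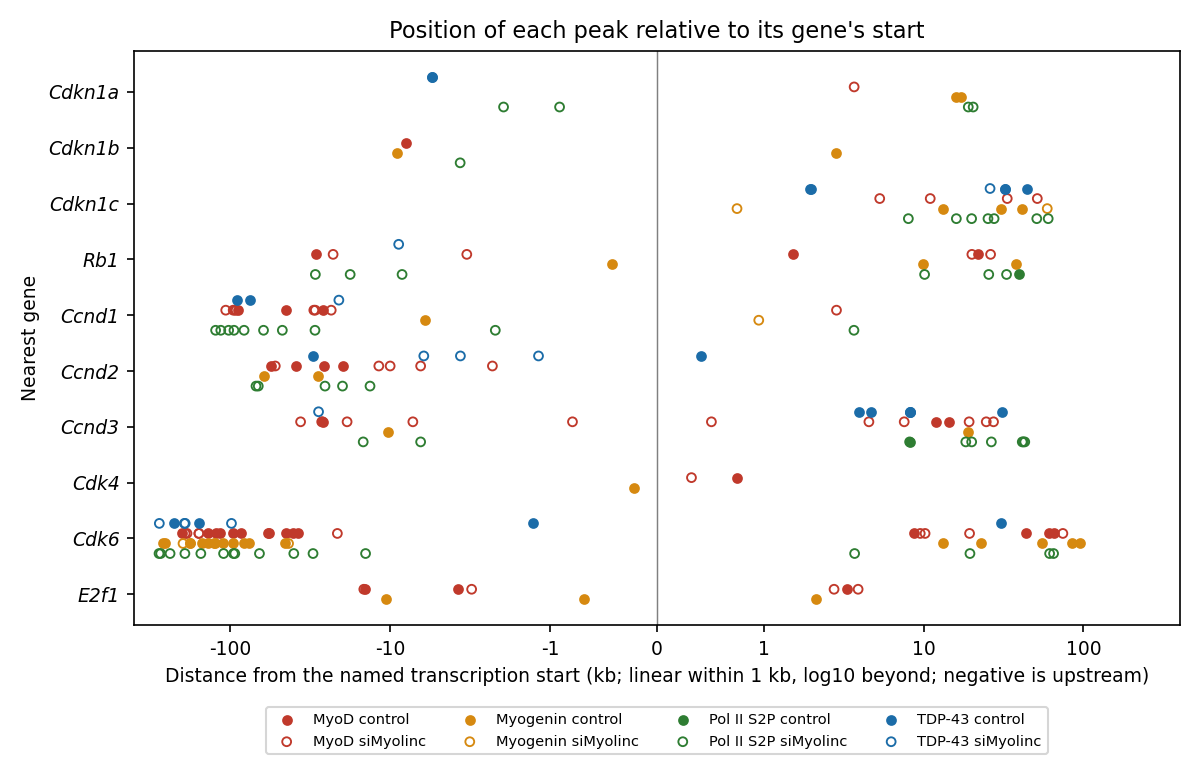
Distance of each of the 215 peaks from the transcription start named for it (x axis, kb, linear within 1 kb and log10 beyond, negative upstream), by gene, with colours for the antibody, filled circles for control and open circles for siMyolinc. The circles lie within 1 kb of the start in 11 cases, those of Cdkn1c all lie downstream, and the distal field of Cdk6 reaches 279389 bp upstream.

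Cdk4 encodes a catalytic partner of the D-type cyclins and had 3 peaks, the fewest of the 10 genes (chr10:127063535-127067288, mm10, plus strand). All 3 lay within 1 kb of its start. The Myogenin control peak, chr10:127063281-127063499, held 12 tags (95% Poisson interval 6.2 to 21) and was centred 213 bp upstream, while the median peak of that list held 15. The MyoD control peak, chr10:127064235-127064465, lay in exon 2 with 13 tags, where the list median was 8. The MyoD siMyolinc peak, chr10:127063890-127063964, lay in intron 1 with 23 tags, where the list median was 24. No 2 of the 3 overlapped, and no peak of TDP-43 or Pol II S2P was named for Cdk4 in any list. By position Cdk4 had 5 Pol II S2P siMyolinc peaks within 10 kb, 1 in Pol II S2P control and 1 in TDP-43 control replicate 2. These 7 were named for Tspan31, which overlaps Cdk4, or for Marchf9 (March9 in the lists), 3351 bp away. The Pol II S2P siMyolinc peak named for Tspan31, chr10:127067097-127067315, was centred inside the Cdk4 body.

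Cdk4 was the gene whose promoter sequence could be set under a peak. RefSeq promoter windows, which run from 250 bases before to 50 after a start, were at hand for 6 of the 10 genes (8 windows, GRCm38.p6, the assembly named mm10). The Myogenin control list overlapped 1 of the 8, that of Cdk4, against 3.2% of all 32851 windows, and the other 9 lists overlapped none of the 8. The stretch shown is the 215 bases of the Cdk4 window that lie under the Myogenin peak, chr10:127063285-127063499, plus strand, 5′ to 3′, upstream of the transcription start. Capitals mark the 3 E-boxes (CANNTG, the broad motif class that MyoD and Myogenin recognise). Each reads CACGTG and not CAGCTG, the E-box core best known for MyoD and Myogenin.

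Cdk4 promoter under the Myogenin control peak: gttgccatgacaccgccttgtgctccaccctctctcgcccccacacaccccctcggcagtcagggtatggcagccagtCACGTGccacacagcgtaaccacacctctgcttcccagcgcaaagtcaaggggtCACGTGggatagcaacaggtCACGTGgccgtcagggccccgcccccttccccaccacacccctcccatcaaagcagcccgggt

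CANNTG and CACGTG read the same on both strands, so each match counts once, and every CACGTG is also a CANNTG. The 250 bases before the Cdk4 start held 4 CANNTG, at bases 79, 133, 153 and 240 counted from the first base of the window, and 66.2% of all windows held at least 1, with 3.84% holding 4 or more. All 4 read CACGTG, a motif looked for after this sequence had been seen, which 6.02% of windows held at least once and 0.0213% held 4 or more times. CAGCTG was in none of the 8 windows, that of Cdk4 included, and 13% of all windows held it. TGTGTG or its complement CACACA, the type of repeat that TDP-43 binds in RNA and single-stranded DNA, occurred 2 times in the Cdk4 window and in none of the other 7, against 17.9% of all windows. The Cdk6 window and 1 of the 2 Cdkn1a windows held 1 CANNTG each, and the windows of Cdkn1b, Ccnd3 and E2f1 and the other Cdkn1a window held none. A match of letters is a description and does not show which factor was bound.

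E2f1 encodes the factor that drives genes of DNA synthesis (chr2:154559400-154569892, minus strand). It had 10 peaks, 3 of MyoD and 3 of Myogenin in control and 4 of MyoD in siMyolinc, and none of TDP-43 or Pol II S2P was named for it in any list. By position there were 1, 2 and 1 TDP-43 peaks within 10 kb of E2f1 in the controls and none in siMyolinc, and 0 and 2 of Pol II S2P, named for Actl10, Necab3 or 1700003F12Rik. At an exon that the lists name for Actl10, TDP-43 control replicates 2 and 3 (chr2:154552869-154553087 and chr2:154552839-154553057), Myogenin control (chr2:154552920-154553138) and Pol II S2P siMyolinc (chr2:154552840-154553058) held overlapping peaks, a place picked out after its values were seen. The Myogenin control promoter peak, chr2:154570426-154570644, held 21 tags (13 to 32.1), above the list median of 15, and lay 683 bp upstream. A second Myogenin control peak, chr2:154567614-154567832, held 22 tags in intron 1 within a SINE. MyoD had 1 intron 1 peak in control, chr2:154566422-154566652 with 7 tags, and 2 in siMyolinc, of 15 and 21 tags, at chr2:154565914-154565988 and chr2:154567056-154567130. The highest MyoD peaks, 10 tags in control and 31 in siMyolinc, lay 3749 and 14654 bp upstream. No peak of E2f1 overlapped one of another list.

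Rb1 encodes the retinoblastoma protein (chr14:73192858-73325951, minus strand). Its 18 peaks comprised 1 promoter peak, 10 in introns 1 to 6 and 7 distal ones, and 11 lay in repeats. The Myogenin control promoter peak, chr14:73326107-73326325, held 8 tags (3.45 to 15.8) against a list median of 15 and was centred 425 bp upstream. By name MyoD had 3 peaks in control and 4 in siMyolinc, Myogenin 3 and 0, and Pol II S2P 1 and 6. By position within 10 kb of Rb1 the counts were 2 and 8 for MyoD, 7 and 3 for Myogenin and 2 and 8 for Pol II S2P. Of these, 17 were named for Lpar6 or Mir687, which lie within the Rb1 locus, among them all 3 Myogenin siMyolinc peaks. TDP-43 had none in its 3 control lists and 1 in siMyolinc, of 7 tags in an LTR element 8870 bp upstream. A distal MyoD control peak, chr14:73355030-73355260 with 9 tags, overlapped a Pol II S2P siMyolinc peak, chr14:73355117-73355335 with 10 tags. The highest peak at Rb1 by tags was one of MyoD in siMyolinc, chr14:73299490-73299564 in intron 2, with 32 tags against a list median of 24.

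Cdkn1a encodes p21, the inhibitor that MyoD is known to induce in differentiating myoblasts (chr17:29090979-29100722, plus strand). It had 9 peaks: 1 each in TDP-43 control replicates 2 and 3, none in TDP-43 control replicate 1 or TDP-43 siMyolinc, 1 of MyoD in siMyolinc, 2 of Myogenin in control and 4 of Pol II S2P in siMyolinc. The Pol II S2P siMyolinc promoter peak, chr17:29089964-29090182, held 15 tags (8.4 to 24.7) against a list median of 11 and lay 913 bp upstream. The single MyoD peak, chr17:29097419-29097493, lay in intron 1 at 3684 bp from the named start and held 34 tags, above the median of 24 in that siMyolinc list. MyoD had no peak in control, by name or within 10 kb of the gene. TDP-43 control replicate 1 had 1 peak within 10 kb that was named for the noncoding RNA gene Trp53cor1, so that by position each of the 3 TDP-43 controls had 1 and siMyolinc none. Both Myogenin control peaks lay downstream of the gene in repeats, at 16054 and 17089 bp from the start, with 10 and 16 tags.

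Cdkn1b, which encodes p27, had 4 peaks (chr6:134920401-134925525, plus strand). Myogenin had a control peak of 26 tags at chr6:134911209-134911427, 9083 bp upstream, and one of 6 tags in intron 2. MyoD had 1 control peak of 11 tags at chr6:134912285-134912515, 8001 bp upstream, and Pol II S2P 1 siMyolinc peak of 10 tags 3661 bp upstream. Both upstream peaks of the myogenic factors lay in L2a elements, about 1 kb apart, and neither was listed after knockdown. By position MyoD siMyolinc had 1 peak within 10 kb and Pol II S2P siMyolinc 3. TDP-43 had none by name or position in any of its 4 lists.

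Cdkn1c encodes p57 and lies in an imprinted domain beside Kcnq1, a potassium channel gene (Cdkn1c at chr7:143458339-143461059, minus strand). All 22 of its peaks lay downstream of its start and 7 of them were annotated to the transcript of Kcnq1. By name Cdkn1c and Ccnd3 were the genes with a TDP-43 peak in all 4 lists of that antibody. For Cdkn1c these were 2, 2 and 1 peaks in the controls and 1 in siMyolinc. MyoD had 0 in control and 4 in siMyolinc, Myogenin had 3 and 2, and Pol II S2P had 0 and 7. Within 10 kb of the Cdkn1c body TDP-43 had 0, 1 and 1 peaks in the controls and 0 in siMyolinc. There Myogenin had 0 in control and 1 in siMyolinc, the opposite direction to the count by name. MyoD had 0 and 2 there, and Pol II S2P 0 and 1. Nearest the start was a Myogenin siMyolinc peak in exon 2, chr7:143460262-143460336, with 32 tags, which is low in a list whose median was 137. The highest Myogenin siMyolinc peak of Cdkn1c held 142 tags (120 to 167), lay in the last intron of Kcnq1 and so stood near that median.

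Ccnd1 encodes cyclin D1, the D-type cyclin of proliferating myoblasts (chr7:144929931-144939831, minus strand). Of its 26 peaks, 23 were distal and upstream, out to 123732 bp, and 3 were intronic. MyoD had 3 peaks in control, each of 7 tags and all distal, and 8 in siMyolinc of 12 to 43 tags. The highest of these, chr7:144937031-144937105, lay in intron 3. The list medians were 8 tags in MyoD control and 24 in MyoD siMyolinc. Pol II S2P had none in control and 10 in siMyolinc, of 6 to 15 tags, with 1 in intron 3. Myogenin had 1 peak in each condition. That in control held 14 tags, against a list median of 15, and lay 6114 bp upstream. That in siMyolinc, chr7:144938933-144939007, held 163 tags (139 to 190), against a list median of 137. It lay in intron 1 at 955 bp from the start. TDP-43 had 1, 1 and 0 distal peaks in the controls and 1 in siMyolinc, at least 20984 bp from the start. A MyoD siMyolinc peak and a Pol II S2P siMyolinc peak overlapped at 29468 bp upstream, chr7:144969356-144969430 and chr7:144969410-144969628, with 12 and 6 tags.

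Ccnd2 encodes cyclin D2 (chr6:127125162-127152188, minus strand). Of its 21 peaks, 18 were annotated to 9330179D12Rik, a long noncoding RNA gene that runs away from Ccnd2 in the opposite direction (chr6:127149389-127212419), so the intronic peaks counted for Ccnd2 were intronic in that RNA. The 1 peak named for Ccnd2 inside its body was of TDP-43 control replicate 1, in exon 1 at 416 bp from the start, chr6:127150508-127150756, with 10 tags against a list median of 8. TDP-43 control replicates 2 and 3 had no peak at Ccnd2, whereas TDP-43 siMyolinc had 3, of 7, 7 and 10 tags, between 1185 and 6178 bp upstream. By name MyoD had 4 peaks in control and 5 in siMyolinc, Myogenin 2 and 0, and Pol II S2P 0 and 5. Within 10 kb of the Ccnd2 body the counts were 2 and 4 for MyoD, 1 and 2 for Myogenin, the opposite direction to the count by name, and 0 and 2 for Pol II S2P. MyoD control and Pol II S2P siMyolinc overlapped at 2 places in the noncoding RNA. At the first, chr6:127170719-127170949 and chr6:127170851-127171069, they had 8 and 20 tags, and at the second, chr6:127176772-127177002 and chr6:127176559-127176777, they had 16 and 7. The highest peak by tags was one of MyoD in siMyolinc, chr6:127161041-127161115 in an LTR element, with 45 tags against a list median of 24. It ranked 5244 of the 109512 peaks with a named gene in that list. The MyoD control peak of 16 tags, against a list median of 8, stood higher in its own list, at 1386 of 71872.

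Ccnd3 encodes cyclin D3 (chr17:47505051-47599689, plus strand). It had 34 peaks in 9 of the 10 lists, 29 of them inside its body and 18 in repeats. MyoD had 3 peaks in control, of 7 to 11 tags and all in intron 1. In siMyolinc it had 12, of 11 to 35 tags, including the promoter peak chr17:47504222-47504296, 792 bp upstream, with 23 tags (14.6 to 34.5) against a list median of 24. Another MyoD siMyolinc peak, chr17:47593941-47594015 with 33 tags, lay in intron 3 at 511 bp from a start that the annotation places inside the gene. Pol II S2P had 9 siMyolinc peaks, 8 in intron 1 and 1 in intron 2. Myogenin had 2 in control, of 13 and 20 tags, both in SINE elements, and none in siMyolinc. An intron 1 place within a SINE was listed for MyoD in both conditions, with 11 tags at chr17:47566817-47567047 in control and 22 tags at chr17:47566911-47566985 in siMyolinc.

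Cdk6, the kinase partner of D-type cyclins that resembles Cdk4, had 68 peaks, 31.6% of those of the 10 genes (chr5:3341004-3531008, plus strand). Of these, 18 were intronic and 50 distal, all 50 upstream, and none was of the promoter class. Cdk6 spans 190005 bp, and no protein-coding gene lies between it and its farthest peak, 279389 bp upstream, so that far peaks are assigned to it. Of the 33 peaks beyond 100 kb from a start, 29 were of Cdk6. By list there were 3, 1 and 0 peaks of TDP-43 in control and 4 in siMyolinc, 15 and 9 of MyoD, 17 and 3 of Myogenin, and 0 and 16 of Pol II S2P. Counted by position within 10 kb of the gene body, Cdk6 had 8 MyoD peaks in control and 9 in siMyolinc, 8 and 1 of Myogenin, and 1 and 6 of Pol II S2P, those not named for Cdk6 being named for its neighbour Fam133b.

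The highest Myogenin control peak at Cdk6 by tags, chr5:3366954-3367172 in intron 1, held 39 (27.7 to 53.3) and ranked 416 of 115000 in its list. In Myogenin siMyolinc the highest, chr5:3146483-3146557, lay 197792 bp upstream, held 313 tags (279 to 350) and ranked 80 of 20453. These were the highest ranks that Cdk6 reached in the Myogenin lists, and they lay at different places. The peak nearest the start was one of TDP-43 control replicate 1, chr5:3342913-3343161, with 7 tags in a CpG island 1275 bp upstream of the start named for it. Among peaks named for Cdk6, those of different lists overlapped at 4 places. TDP-43 siMyolinc met MyoD siMyolinc 191766 bp upstream, with 9 and 25 tags, and TDP-43 control replicate 1 met 2 MyoD siMyolinc peaks at an L1Md_A element 157346 bp upstream, with 9 tags against 8 and 8. MyoD control met Myogenin control 96289 bp upstream, with 6 and 8 tags, at chr5:3247908-3248138 and chr5:3247920-3248138. MyoD siMyolinc met Pol II S2P siMyolinc in intron 1, with 14 and 20 tags, at chr5:3363681-3363755 and chr5:3363716-3363934. By position, Myogenin control (chr5:3469340-3469558) and Pol II S2P control (chr5:3469281-3469505) also overlapped inside the Cdk6 body, with both peaks named for Fam133b.

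TDP-43 was the antibody with repeat libraries, and its control lists shared 4 places among peaks named for the cell cycle exit genes. The Actl10 exon within 10 kb of E2f1, described above, was also shared by replicates 2 and 3, but its peaks are not named for a member. Pol II S2P siMyolinc held a peak there too. The place listed in all 3 controls was assigned to Ccnd3 but lay in the last of the 7 exons of Bysl, a ribosome biogenesis gene on the other strand (chr17:47599331-47611492). The peaks there were chr17:47601532-47601780 with 11 tags (5.49 to 19.7), chr17:47601592-47601810 with 10 (4.8 to 18.4) and chr17:47601605-47601823 with 6 (2.2 to 13.1). Pol II S2P in control had a peak at the same place, chr17:47601545-47601769, with 7 tags (2.81 to 14.4), 1 of the 2 peaks of this list that were named for any of the 10 genes. The other 3 places were each listed in 2 of the 3 TDP-43 controls. Replicates 2 and 3 shared an LTR element 5525 bp upstream of Cdkn1a, chr17:29085352-29085570 and chr17:29085354-29085572, with 8 tags each. Replicates 1 and 2 shared a distal place 32337 bp downstream of the Cdkn1c start, chr7:143428589-143428837 and chr7:143428602-143428820, with 6 and 5 tags. Replicates 2 and 3 also shared a place at the 3′ end of Cdkn1c, chr7:143458958-143459176 and chr7:143459003-143459221, with 8 and 7 tags.

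**Figure D3:**
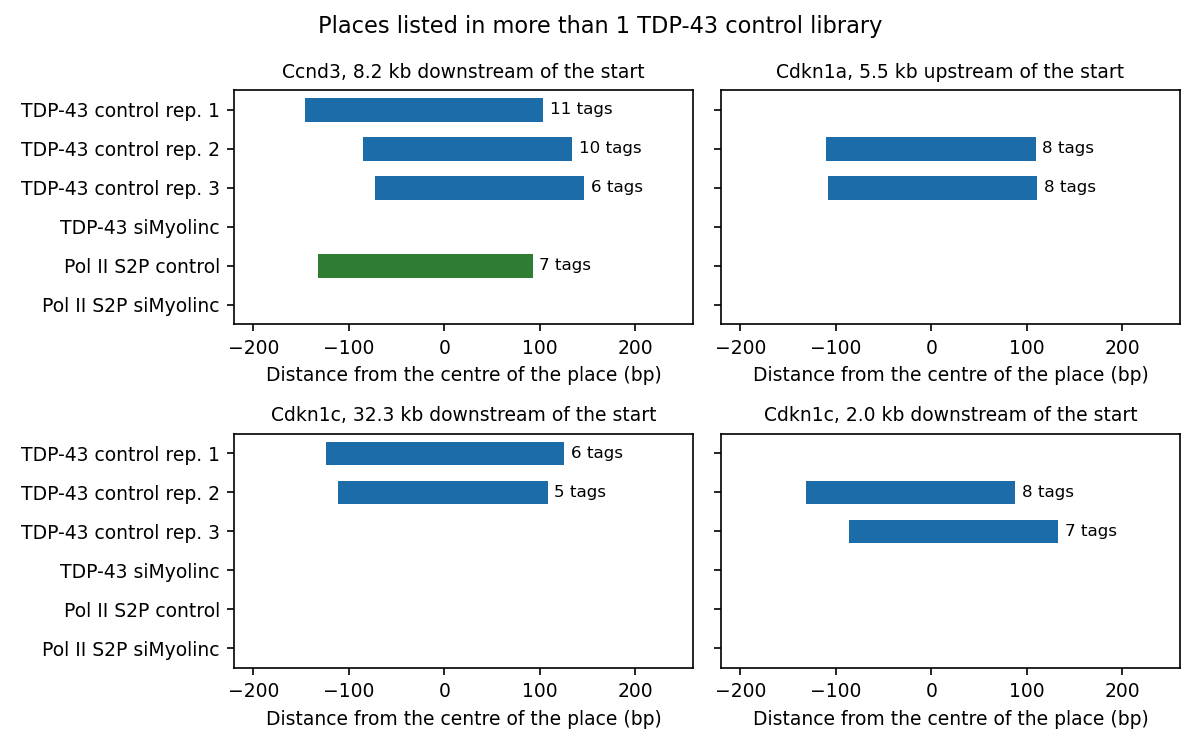
The 4 places, among peaks named for cell cycle exit genes, that more than 1 TDP-43 control list held. Each panel shows the span of the peaks (x axis, bp from the centre of the place) in the TDP-43 and Pol II S2P lists, with the tags of each peak. At the Ccnd3 place, which lies in an exon of Bysl, all 3 TDP-43 controls and the Pol II S2P control hold a peak, and at each of the 4 places the siMyolinc rows of both antibodies are empty.

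Of the 12, 6 and 3 TDP-43 control peaks, 2 (16.7%), 4 (66.7%) and 3 (100%) overlapped a peak of another control replicate by at least 1 bp. Over all peaks of these lists the shares were 19%, 50.3% and 56.3%. The TDP-43 siMyolinc list held a peak at none of the 4 places. Its single Ccnd3 peak, chr17:47565247-47565463, lay in intron 1 with 5 tags, and none of its 11 peaks overlapped a TDP-43 control peak of these genes. Distal peaks made up 41.7%, 50.0% and 33.3% in the controls and 63.6% in siMyolinc, a difference of 21.9 percentage points outside the control range (control mean 41.7% ± 8.35, SD, n = 3, exact permutation p = 0.25, the smallest possible). Over all peaks the distal share was also higher in the siMyolinc list, at 46.9% against 39.3%, 37.0% and 35.7% in the controls. Peaks in repeats made up 30.5% ± 4.79 (SD, n = 3) in control and 36.4% in siMyolinc (exact permutation p = 0.5), where over all peaks they made up 30.6%, 30.0% and 27.4% in the controls and 34.3% in siMyolinc.

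Control peaks of these genes were seldom found again after knockdown. None of the 12, 6 and 3 TDP-43 control peaks was overlapped by a TDP-43 siMyolinc peak, where the shares over all peaks were 5.88%, 7.08% and 7.36%. For MyoD 1 of 33 was found again, the Ccnd3 intron 1 place named above, against 1.77% of all MyoD control peaks. For Myogenin 0 of 36 were, against 0.355%, and for Pol II S2P 0 of 2, against 10.5%. At these background shares fewer than 1 of the members' peaks would be found again in each list, so counts of 0 and 1 do not set the cell cycle exit genes apart. Fewer peaks and lower enrichment in a library cannot be told apart from lost binding in peak lists.

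Intronic peaks took 58.3% (95% Wilson interval 44.3 to 71.2) of the MyoD siMyolinc peaks at the 10 genes, where they took 40.8% of all peaks in that list, and 42.4% (27.2 to 59.2) against 40.2% in MyoD control. Ccnd3 gave 11 of the 28 intronic MyoD siMyolinc peaks, out of its 12 peaks in that list. In Myogenin control the intronic share was 36.1% (22.5 to 52.4) against 38.1%, and in Pol II S2P siMyolinc 37.9% (26.6 to 50.8) against 41.6%. In MyoD siMyolinc the share over all peaks of the list fell outside the interval of the members, and in the other 9 lists it fell inside. The interval treats peaks of the same gene as independent, and whether the MyoD siMyolinc value rests on Ccnd3 was not tested.

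Counted by position, the 10 genes with 10 kb on each side span 0.687 Mb. In this span TDP-43 had 11.7, 10.2 and 5.83 peaks per Mb in the controls and 11.7 in siMyolinc, where all 21887 protein-coding genes with the same flanks had 18.9, 7.24, 5.7 and 13.5. MyoD had 30.6 (95% Poisson interval 18.9 to 46.8) in control against 31.8, and 71.4 (52.8 to 94.4) in siMyolinc against 54.6. Myogenin had 40.8 (27.1 to 58.9) against 48.3, and 11.7 (5.03 to 23) against 10.7. Pol II S2P had 7.28 (2.36 to 17) against 6.82, and 62.6 (45.3 to 84.4) against 58.0. In each of the 10 lists the value over all genes lay inside the members' interval, so at this depth no departure of the cell cycle exit genes from other genes was detectable in peak density.

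**Figure D4:**
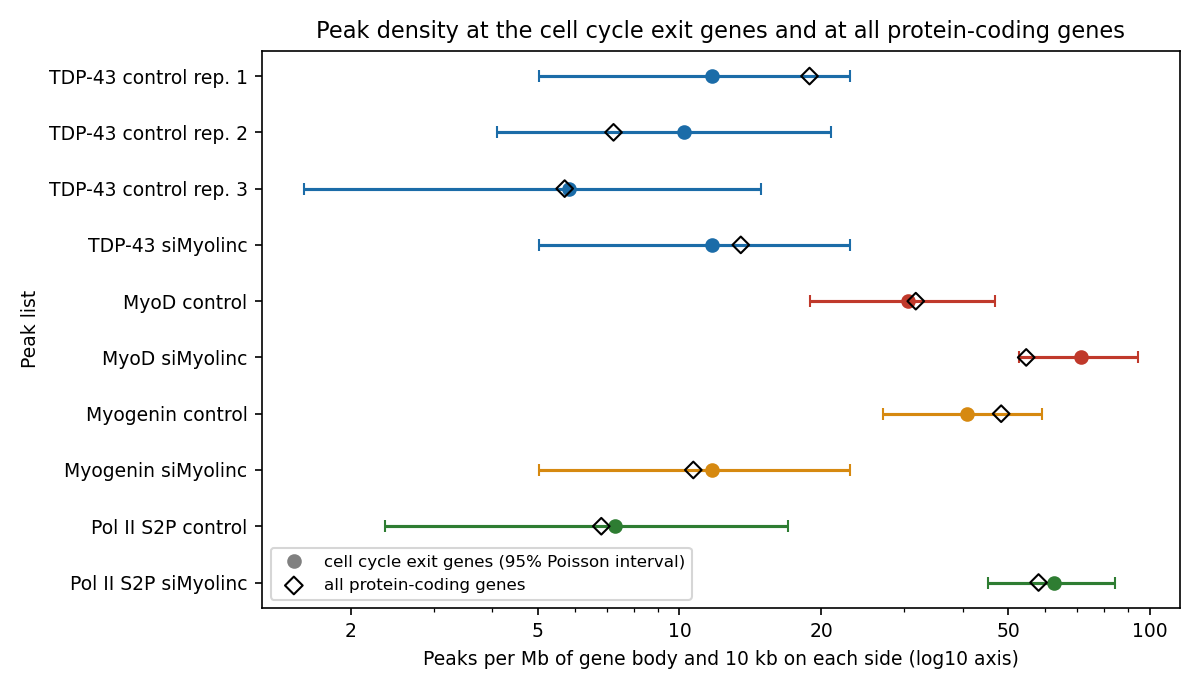
Peaks per Mb of gene body and 10 kb on each side (x axis, log10) in each list, for the cell cycle exit genes (filled circles with 95% Poisson intervals) and for all 21887 protein-coding genes (open diamonds). Each diamond lies within the interval of its list, and the members' values run from 5.83 in TDP-43 control replicate 3 to 71.4 in MyoD siMyolinc.

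A further 30 genes of the same pathway, among them the INK4 inhibitors, the pocket proteins Rbl1 and Rbl2, the remaining E2F genes, cyclins E, A and B and the DREAM complex subunits, were counted in the same way by name. TDP-43 and Myogenin had no promoter peak at any of the 30 in either condition, and MyoD and Pol II S2P had none in control. In siMyolinc MyoD had promoter peaks at E2f3, E2f4, E2f8 and Trp53, the last of them at a start of the neighbouring Wrap53, with 17, 10, 6 and 9 tags, which is 4 of 30 against 11.2% of protein-coding genes. Pol II S2P had them in siMyolinc at Lin54, Rbbp4 and Rbl2, with 11, 13 and 7 tags, that of Rbbp4 at a start of Zbtb8os, which is 3 of 30 against 8.9%. These shares stood close to the background of their lists. Any peak was assigned to 14, 5 and 4 of the 30 genes in the TDP-43 controls (background 49.3%, 26.8% and 22.3%) and to 16 in TDP-43 siMyolinc (45.2%). For MyoD the numbers were 22 in control (64.9%) and 27 in siMyolinc (75.7%), for Myogenin 26 (73.2%) and 9 (39.7%), and for Pol II S2P 5 (26.8%) and 24 (77%). For these 3 antibodies the numbers moved between conditions in the same direction as the background.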

How the data were processed

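ChIP-seq peak lists of 10 libraries were used. The authors annotated the lists with HOMER on mm10, per the file headers and the submitters' processing notes. The aligner is not given in the sources used here, and neither are the HOMER version and calling settings. Each deposited peak score is the authors' score and served to rank peaks within a list and, divided by the list's step, to give tags. Scores were whole multiples of the step (tolerance 0.05, the highest 1% set aside) for 99.7% of Myogenin siMyolinc scores and 100% in the other 9 lists. Scaling to 10000000 tags is HOMER's default and is stated in no header or label. The deposited focus ratio, a fraction, was not used. Distances to a start, in bp, are those deposited by the authors.

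A member's peak is one whose deposited nearest gene is the member. All 10 members were described, and single peaks were named if they were of the promoter class, overlapped a peak of another list by at least 1 bp or held the most tags of a member in a list. Not every peak of the last kind is printed. Members and lists were chosen with earlier results of these data known. TDP-43 was compared by an exact two-sided permutation test (3 libraries against 1), whose smallest p is 0.25. Other antibodies had 1 library per condition and no test. Gene bodies and promoter windows came from RefSeq (GRCm38.p6). Scripts, tested on simulated data, used Python 3.11.15, pandas 2.3.3, NumPy 2.4.6, SciPy 1.17.1 and Matplotlib 3.10.9.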

Additional observations from a re-analysis of the deposited data

How the results depend on the processing

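Of 74 alternative values for 14 results, 17 moved, all of them counts or differences between counts. Such a value moved when it changed by over 1.5 times in either direction or away from 0. No difference per 10000 of MyoD, Myogenin or Pol II S2P left the counting interval of its main value. Differences per 10000 changed sign under 8 alternatives, 6 of them inside wide counting intervals. The TDP-43 difference in member peaks per 10000, -0.0561, became 0.817 with lists of equal length (the 8162 highest peaks of each), and ranged from -0.45 to 0.55 when 1 control replicate was left out, with 0.55 without replicate 2. For MyoD the difference of -0.208 became 1.55 by gene body and 10 kb around it and 0.506 without repeats. For Myogenin -0.195 became 1.48 and 0.289 in the same order, and 0.596 when peaks under the median score were dropped. For Pol II S2P 3.13 became -0.961 by gene body. The number of genes with a promoter peak, siMyolinc minus control, is given next. For TDP-43 it was 0, and -0.333 with starts within 1000 bp and -0.667 with starts within 5000 bp. For MyoD it was 1, and 0 with lists of equal length, 0 when peaks under the median score were dropped and 4 with starts within 5000 bp. For Myogenin it was -3, and 0 with lists of equal length, -1 when peaks under the median score were dropped and -1 with starts within 1000 bp. For Pol II S2P it was 1, and 0 with lists of equal length, 3 with gene bodies and 10 kb around them and 4 with starts within 5000 bp. The MyoD control peaks found again numbered 1, and 0 with lists of equal length, 0 when peaks under the median score were dropped and 6 with peaks extended by 500 bp, where Myogenin went from 0 to 1. The TDP-43 places shared by controls numbered 4, and between 1 (without replicate 2) and 3 when a replicate was left out. An extended peak overlaps more peaks and a shorter list holds fewer by construction, and otherwise the cause was not tested. Without the narrow siMyolinc lists of MyoD and Myogenin, an alternative chosen after seeing the data, Cdk6 held 34.8% of 161 peaks. No paired analysis was possible because the groups compared share fewer than 2 replicate numbers. Between 962387 and 3774952 tags per library, peaks of 6 to 8 tags have Poisson intervals too wide to order them.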
